A study of Homo sapiens with 6 samples.

Results

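The collagen genes were taken as every row of the deposited expression table that has a protein-coding transcript type and a gene name of the form COL, number, A, number. This gave 39 of the 35750 genes listed: 11 fibrillar, 7 FACIT, 6 basement membrane, 4 microfibrillar, 4 transmembrane, 3 short chain network, 2 multiplexin, 1 anchoring fibril and 1 other collagen. COL6A5, COL9A1, COL20A1 and COL28A1 are not analysed here, and COL9A2, listed only with a retained intron transcript type, is no member. They were read in T98G, a human glioblastoma cell line grown in serum-containing medium, in 3 libraries labelled shControl and 3 labelled shSLC1A5, made from poly(A)-selected RNA. The shSLC1A5 cells carry a short hairpin RNA against SLC1A5, the transporter that brings glutamine and other neutral amino acids into the cell, and the control cells a control hairpin. No label gives the hairpin sequence, the vector, the time after delivery or whether a group is 1 population or several. The p-values therefore reflect the scatter of these libraries alone, and that scatter could be technical.

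Collagens are matrix proteins built of 3 chains wound into a triple helix, with glycine at every turn and prolines that are hydroxylated in the endoplasmic reticulum before the molecule is secreted. Fibrillar collagens (types I, II, III, V, XI, XXIV and XXVII) assemble into banded fibres, FACIT collagens attach to those fibres, type IV forms the sheet-like network of basement membranes, and type VI forms beaded microfilaments that link cells to the surrounding matrix. In normal brain, collagen is largely limited to vessels and meninges, while glioblastoma lines of mesenchymal character are known to make matrix of their own.

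The libraries held 59327548 to 70802167 counts. SLC1A5 itself, the check of the labels, stood at 95.0 to 97.1 FPKM (fragments scaled to gene length and library size) in shControl and 87.5 to 88.3 FPKM in shSLC1A5, an edgeR log2 fold change of -0.14 (adjusted p = 1.93e-04), and of -0.35 with the GC content and length offsets described below, so every direction here is that of the libraries labelled shSLC1A5. VIM and CD44 made up nearly all of the summed level of 10 glioma line markers, 597 to 609 FPKM in shControl and 529 to 544 in shSLC1A5, and GFAP, the astrocyte intermediate filament, had only 8 to 28 counts per library. Some transcripts of other cell types differed between the groups. The summed level of 7 endothelial markers was 0.664 to 1.05 FPKM in shControl and 1.78 to 1.87 in shSLC1A5. CDH5, the endothelial cadherin, had 0 counts in every shControl library and 98 to 118 in shSLC1A5, and PECAM1, VWF and KDR were also higher without overlap. ESAM, TEK and CLDN5 overlapped between the groups, ESAM at 0.556 to 0.809 FPKM in shControl and 0.554 to 0.771 in shSLC1A5. The summed level of 8 B cell markers was 0.233 to 0.554 FPKM against 6.09 to 11.2, and 8 neutrophil markers reached 67.1 FPKM in shSLC1A5 replicate 1 alone, against 0.114 to 0.559 in the other 5 libraries. The 5 listed red cell markers also stood apart there, at 5.27 FPKM against 0.00 to 0.297. The 9 listed fibroblast and pericyte markers summed to 23.4 to 23.6 FPKM in shControl and 24.2 to 25.7 in shSLC1A5, nearly all of it PDGFRB. PDGFRA was higher in shSLC1A5 without overlap, at 0.720 to 0.833 FPKM against 0.422 to 0.564. So were LUM, CSPG4 and TBX18, each at lower levels. PDGFRB, RGS5, ACTA2 and ABCC9 overlapped between the groups. DCN, the defining fibroblast proteoglycan, was at 0 counts in 5 libraries and 7 in the sixth. The 9 T cell and macrophage markers summed to 17.4 to 19.8 FPKM in shControl and 20.6 to 23.5 in shSLC1A5, nearly all of it CD68. The part of all these transcripts in the collagen results was not tested. In such bulk RNA, fewer cells of a type and less RNA per cell cannot be told apart.

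T98G transcribed a restricted set of collagens at high level. In this line 14 of the 39 genes averaged 1 FPKM or more across the libraries and were tested, 9 lay between 0.1 and 1 FPKM and 16 lay below 0.1. The 39 genes summed to 792 ± 8.45 FPKM in shControl and 929 ± 5.50 FPKM in shSLC1A5 (SD, n = 3). That was 0.316% to 0.326% of all FPKM in the first group and 0.373% to 0.381% in the second. Their share of all counts was 1.12% to 1.16% in the first group and 1.30% to 1.31% in the second. Type VI alone made 66.5% to 67.2% of the collagen FPKM in the shControl libraries and 66.2% to 66.7% in the shSLC1A5 libraries. COL6A3 ranked at place 69 among all genes by FPKM in shControl, COL6A1 at 232, COL6A2 at 316 and COL1A2 at 580, while COL27A1, the lowest of the tested collagens, ranked at 6593.

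**Figure D1:**
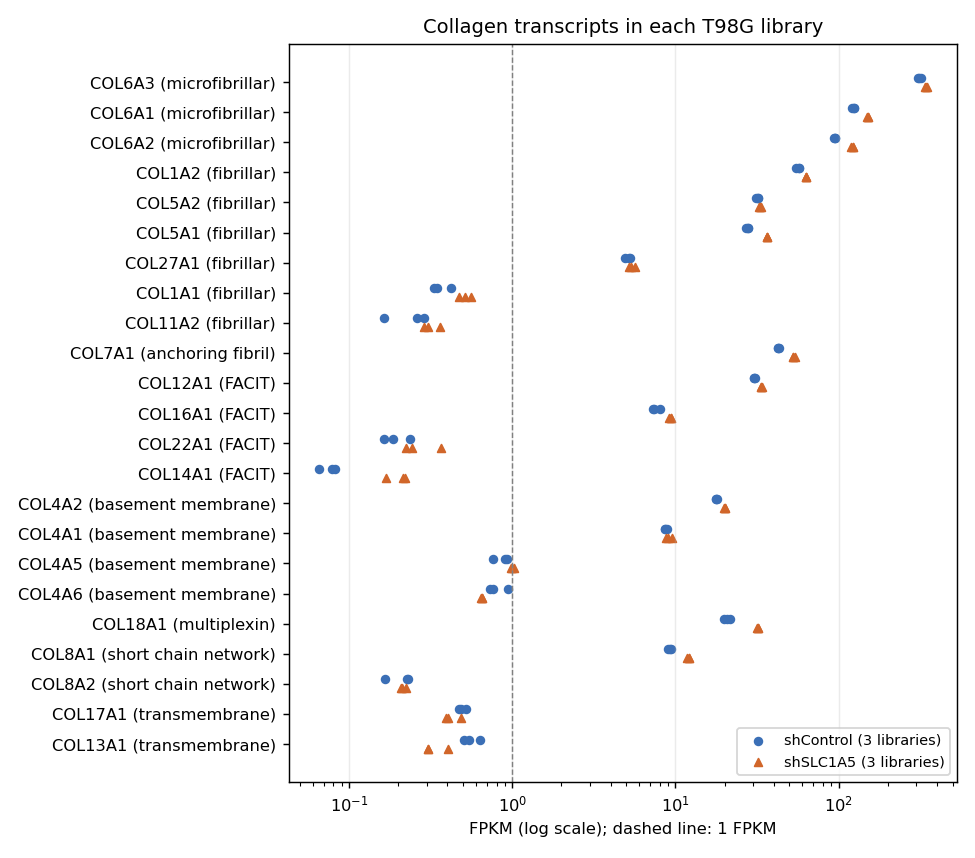
FPKM on a log axis of the 23 collagen genes averaging 0.1 FPKM or more, grouped by class, with 1 point per library (circles shControl, triangles shSLC1A5). Levels run from 313 ± 6.89 FPKM for COL6A3 to 0.0752 ± 0.0088 FPKM for COL14A1 in shControl (SD, n = 3), and the triangles lie to the right of the circles for most genes above the dashed line at 1 FPKM.

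The regulatory sequences of 4 places are shown beside the values below: the stretch shared by the COL4A1 and COL4A2 genes, and the 150 bases before the RefSeq starts of COL18A1 and COL5A1, which had the largest log2 fold changes, and of COL6A2, which had the largest in type VI. All are from RefSeq, build GRCh38.p14, plus strand, 5′ to 3′, with the CCAAT box (CCAAT), the GC box (GGGCGG, read as CCGCCC from the other strand) and the TATA box (TATAAA) in capitals wherever they occur on either strand.
COL4A1-COL4A2 (chr13:110307158-110307283): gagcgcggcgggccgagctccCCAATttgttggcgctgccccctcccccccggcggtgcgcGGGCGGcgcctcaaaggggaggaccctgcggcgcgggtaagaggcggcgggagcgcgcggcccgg
COL18A1 (chr21:45405015-45405164): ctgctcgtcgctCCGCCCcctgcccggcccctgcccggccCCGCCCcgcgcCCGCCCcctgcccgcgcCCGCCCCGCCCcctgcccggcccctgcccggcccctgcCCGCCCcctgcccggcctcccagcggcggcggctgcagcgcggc
COL6A2 (chr21:46097962-46098111): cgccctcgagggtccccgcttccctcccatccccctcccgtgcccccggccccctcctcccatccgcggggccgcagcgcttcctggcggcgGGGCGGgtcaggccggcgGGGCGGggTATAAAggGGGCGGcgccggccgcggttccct
COL5A1 (chr9:134641653-134641802): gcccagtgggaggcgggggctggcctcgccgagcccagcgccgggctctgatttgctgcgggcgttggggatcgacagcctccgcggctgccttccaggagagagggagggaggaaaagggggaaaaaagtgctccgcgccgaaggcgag
The COL4A1-COL4A2 stretch is the whole of the 126 bases between the RefSeq starts of the 2 genes, which are read in opposite directions, and it holds 1 CCAAT and 1 GGGCGG. The COL18A1 stretch is 90.0% G and C and holds 6 GC boxes, some of which overlap. The COL6A2 stretch is 80.7% G and C with 3 GC boxes and 1 TATAAA, and the COL5A1 stretch holds none of the 3 motifs. A GC box does stand in the wider 250 bases before the COL5A1 start. COL18A1 has another RefSeq start at 45455522, with TATAAA in the 250 bases before it, and which start was in use was not tested. In RefSeq's table, 29 of the 39 collagen genes were matched, with 40 starts. Over the 250 bases before each start, GGGCGG stood on either strand in 57.5% of the 40 collagen promoters and in 42.6% of the 35116 promoters of all genes, CCAAT in 25.0% and 32.0%, TATAAA in 20.0% and 10.7%, and ACGTG, the core of the hypoxia response element, in 17.5% and 18.5%. A match describes letters in a window and is not a site.

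In the libraries labelled shSLC1A5, 11 of the 14 tested collagens rose, 0 fell and 3 did not pass the threshold of an adjusted p under 0.05 by edgeR's quasi-likelihood test. At an unadjusted p under 0.05 the test called 12 higher and 0 lower. DESeq2 called 11 higher and 0 lower after adjustment, and 2585 of all genes higher. Without shSLC1A5 replicate 1, the library with neutrophil transcripts, 11 again rose and 0 fell, where 2071 of all genes rose. Replicates 2 and 3 still held endothelial (1.78 and 1.86 FPKM) and B cell transcripts (6.09 and 9.11 FPKM), whose part was not tested. With all 6 libraries, 20.2% of the 11841 genes tested rose and 19.0% fell by edgeR. The median log2 fold change was 0.22 over the 14 collagens and -0.01 over all tested genes. The FPKM values of the groups did not overlap for 12 of the 14, against 49.6% of all tested genes. The largest rises were those of COL18A1, COL5A1, COL8A1 and COL6A2.

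Among the 14 tested collagens the fold change and the GC content of the transcript had a Spearman correlation of 0.46, a description of genes that share the 6 libraries, with COL8A1 (46.8% GC, log2 fold change 0.37) and COL27A1 (61.3%, 0.06) away from the trend. Collagen transcripts are rich in G and C, with a median of 60.8% in the 14 tested genes against 48.0% over all tested genes, and across all tested genes the fold change rose with GC content (Spearman correlation 0.49 across genes, which share the 6 libraries and are not independent). Of the 1565 tested genes with at least 60% GC, 62.2% rose, and 7 of the 8 such collagens did. When each library's trend with GC content and transcript length was fitted by loess and entered edgeR as offsets, 6 of the 14 collagens were higher, 2 lower and 6 not called, against 11.1% of all genes higher and 14.8% lower. The 8 collagens of at least 60% GC went from a median log2 fold change of 0.29 to 0.00, while the 6 below 60% went from 0.13 to 0.12, with 4 of these 6 higher in both fits. Without offsets, all tested genes of at least 60% GC had a median of 0.26 and those below 60% of -0.03. With offsets the Spearman correlation with GC content was -0.37 among the 14 collagens and -0.01 across all tested genes. The 6 genes higher in both fits were COL18A1, COL5A1, COL8A1, COL1A2, COL12A1 and COL6A3. Offsets of this kind take out any trend with GC content whatever its source, and whether the trend arose in the cells or in the libraries was not tested. An edgeR fit with the looser filterByExpr filter and the same kind of offsets called 5 of 30 collagens higher and 6 lower, against 4.33% and 13.9% of its 19527 genes. The median log2 fold change over all genes of that fit was -0.05, so its values are read against that shift. COL18A1, COL5A1, COL8A1 and COL1A2 were the 4 tested genes called higher in all 19 settings run.

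**Figure D2:**
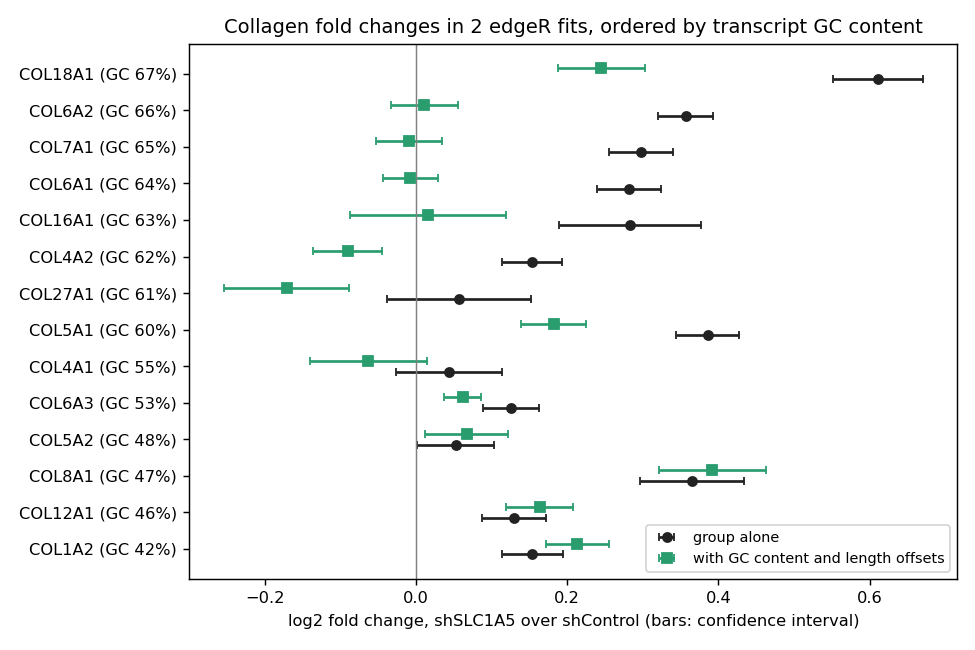
Log2 fold change of the 14 tested collagens, shSLC1A5 over shControl, with the 95% confidence interval as bars, from the edgeR fit with group alone (circles) and with GC content and length offsets (squares), ordered by transcript GC content. The 2 estimates lie close together for the genes at the bottom, of low GC content, and apart for those at the top, where the bars of COL18A1 and COL5A1 alone stay above 0 among those of at least 60% GC.

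**Figure D3:**
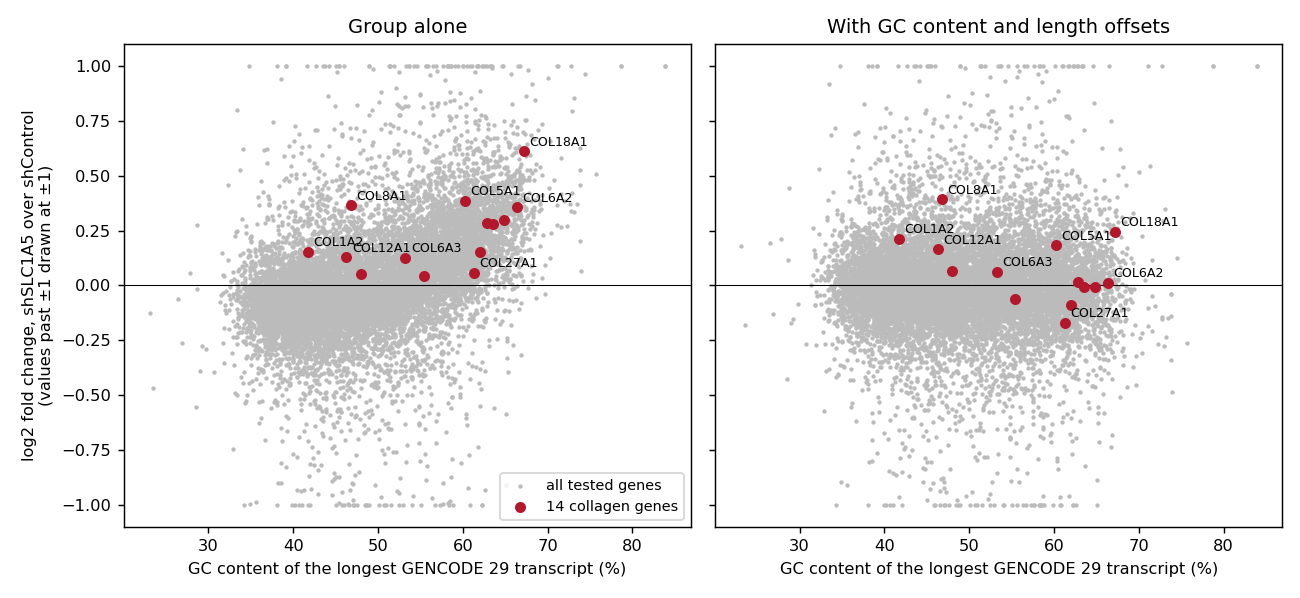
Log2 fold change against transcript GC content for all tested genes (grey) and the 14 collagens (red), with group alone on the left and with GC content and length offsets on the right. On the left the cloud bends upward above 60% GC and 7 of the 8 collagens there were called higher, and on the right the cloud is level and COL8A1, COL18A1, COL1A2 and COL5A1 are the highest collagens.

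All 3 tested chains of type VI, the microfibrillar class, rose. COL6A3 (ENSG00000163359, chromosome 2, 237324003 to 237414207), the long chain whose cleaved C-terminal end is endotrophin, read 313, 319.8 and 306 FPKM in the shControl libraries and 339, 346 and 349 in the shSLC1A5 libraries. The groups did not overlap, and the log2 fold change was 0.13 (SE 0.017, edgeR adjusted p = 1.95e-04). With GC content and length offsets it was 0.06 (adjusted p = 0.00225), and with filterByExpr and offsets together it was -0.08 (adjusted p = 0.0477), or -0.02 against the median of all genes in that fit. COL6A1 and COL6A2, the 2 shorter chains, are neighbours on chromosome 21 (45981769 to 46005050 and 46098112 to 46132848), read in the same direction with 93061 bases between them.

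COL6A1 read 124, 124 and 121 FPKM in shControl and 152, 152 and 149 in shSLC1A5, a log2 fold change of 0.28 (SE 0.019, edgeR adjusted p = 1.41e-06). COL6A2 read 93.9, 94.5 and 94.8 FPKM and then 119.8, 123 and 123, a log2 fold change of 0.36 (SE 0.016, edgeR adjusted p = 9.18e-08). Neither pair of groups overlapped, and each rise was many times its standard error. With GC content and length offsets neither call remained: COL6A1 was at -0.01 (95% confidence interval -0.04 to 0.03, adjusted p = 0.783) and COL6A2 at 0.01 (-0.03 to 0.06, adjusted p = 0.716). Transcripts of these 2 genes are 63.5% and 66.4% G and C, that of COL6A3 53.2%. The microfibrillar class summed to 531 ± 8.54 FPKM in shControl and 618 ± 6.06 in shSLC1A5 (SD, n = 3), 16.4% more. COL6A6, the remaining member of the class, had 4 counts in 1 library and 0 in the other 5.

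Of the fibrillar collagens, 4 of 11 were tested, and COL1A2 and COL5A1 rose while COL5A2 and COL27A1 did not pass. COL1A2 (ENSG00000164692, chromosome 7, 94394895 to 94431227), the second chain of type I collagen, read 54.9, 57.1 and 57.4 FPKM in shControl and 63.4, 63.2 and 63.6 in shSLC1A5. Its log2 fold change was 0.15 (SE 0.018, edgeR adjusted p = 8.78e-05) and 0.21 with GC content and length offsets (adjusted p = 1.14e-05), its transcript having the lowest GC content of the 14, 41.7%. COL1A1 (chromosome 17, 50184101 to 50201632), which supplies 2 of the 3 chains of the usual type I molecule, was low in the same libraries, at 0.333, 0.421 and 0.343 FPKM in shControl and 0.472, 0.516 and 0.558 in shSLC1A5. The COL1A1 groups did not overlap, and in the edgeR fit with filterByExpr its log2 fold change was 0.46 (95% confidence interval 0.13 to 0.79, adjusted p = 0.0460), a call that was lost with offsets (0.18, adjusted p = 0.469).

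Type V collagen, which nucleates and limits the width of type I fibrils, had both common chains expressed. COL5A1 (ENSG00000130635, chromosome 9, 134641803 to 134844843) read 27.6, 27.7 and 27.2 FPKM in shControl and 36.5, 36.2 and 36.2 in shSLC1A5. The 2 groups stood well apart, and the log2 fold change was 0.39 (SE 0.019, edgeR adjusted p = 1.40e-07), or 0.18 with GC content and length offsets (adjusted p = 5.08e-05). COL5A2 read 31.8, 31.1 and 32.0 FPKM and then 33.6, 32.7 and 33.1. Its groups did not overlap either, but the log2 fold change of 0.05 (95% confidence interval 0.00 to 0.10) missed the threshold (edgeR adjusted p = 0.0940), passing it where only genes of at least 5 FPKM were tested and with GC offsets alone (adjusted p = 0.0116). COL27A1, a fibrillar collagen of cartilage, overlapped between groups at 5.26, 5.22 and 4.88 FPKM against 5.21, 5.62 and 5.30 (log2 fold change 0.06, interval -0.04 to 0.15, edgeR adjusted p = 0.328), and was called lower with GC content and length offsets (-0.17, adjusted p = 0.00657).

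The rest of the fibrillar class was scarce. COL11A2, a chain of cartilage type XI collagen, lay at 0.163 to 0.286 FPKM in shControl and 0.289 to 0.359 in shSLC1A5. COL3A1, the type III chain of distensible tissues and an abundant fibroblast product, had 20 to 23 counts in shControl and 16 to 35 in shSLC1A5, and COL24A1, COL11A1, COL2A1 and COL5A3 had 0 to 71 counts in any library. The class summed to 122 ± 1.02 FPKM in shControl and 139 ± 0.554 in shSLC1A5 (SD, n = 3), 14.5% more.

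Both tested FACIT collagens rose. COL12A1 (chromosome 6, 75084326 to 75206053), which decorates type I fibrils in tissues under load, read 30.8, 30.1 and 30.1 FPKM in shControl and 33.2, 33.9 and 33.4 in shSLC1A5, without overlap. Its log2 fold change was 0.13 (SE 0.019, edgeR adjusted p = 3.73e-04) and 0.16 with GC content and length offsets (adjusted p = 1.47e-04), but 0.01 with filterByExpr and offsets together (adjusted p = 0.790), or 0.07 against the median of all genes in that fit. COL16A1 (chromosome 1, 31652263 to 31704319), a FACIT collagen that integrins bind, read 7.43, 7.26 and 8.04 FPKM and then 9.39, 9.17 and 9.36, a log2 fold change of 0.28 (SE 0.042, edgeR adjusted p = 4.09e-04). With offsets it was at 0.02 (95% confidence interval -0.09 to 0.12, adjusted p = 0.837), at a GC content of 62.8%. The class summed to 38.3 ± 0.531 FPKM and then 43.4 ± 0.203 (SD, n = 3), 13.3% more.

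COL14A1, a FACIT collagen of mature connective tissue, had the largest log2 fold change of the 30 collagens that filterByExpr kept, at a very low level. It had 60, 57 and 45 counts in the control libraries against 175, 171 and 130 with the SLC1A5 hairpin, or 0.0652 to 0.0816 and 0.168 to 0.220 FPKM. The groups were far apart, and the edgeR fit with filterByExpr gave 1.38 (95% confidence interval 0.88 to 1.89, adjusted p = 0.00141), and 1.36 with offsets (adjusted p = 0.00193). Over the 19527 genes of the filterByExpr fit, 12.2% rose and 11.9% fell. COL14A1 moved in the direction of the endothelial and B cell transcripts given above, and their part in its rise was not tested. COL22A1, the FACIT collagen of tissue junctions, overlapped at 0.163 to 0.235 and 0.223 to 0.367 FPKM, and COL19A1, COL9A3 and COL21A1 had 0 to 42 counts in any library.

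Of the 6 basement membrane chains 2 were tested, and COL4A2 rose while COL4A1 did not pass. COL4A1 and COL4A2, the 2 chains of the common type IV molecule, share the stretch of 126 bases printed above and overlap by 1346 bases in the table's gene models (chromosome 13, 110148963 to 110307157 and 110305812 to 110513209). COL4A2 rose from 17.9, 17.7 and 17.8 FPKM to 20.1, 19.99 and 19.97, a log2 fold change of 0.15 (SE 0.018, edgeR adjusted p = 7.92e-05). COL4A1 overlapped between the groups, at 8.58, 8.63 and 8.90 FPKM against 8.76, 8.95 and 9.46 (log2 fold change 0.04, 95% confidence interval -0.03 to 0.11, edgeR adjusted p = 0.302). With GC content and length offsets COL4A2 was called lower (-0.09, adjusted p = 0.00834) and COL4A1 was at -0.06 (adjusted p = 0.220), so neither was higher there. The GC contents of the transcripts are 62.0% and 55.4%.

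The X-linked pair, COL4A5 and COL4A6, which serves kidney, skin and smooth muscle basement membranes, lay just under 1 FPKM. COL4A5 ranged from 0.761 to 0.931 FPKM in shControl and 0.981 to 1.02 in shSLC1A5, and COL4A6 from 0.733 to 0.947 and 0.645 to 0.656. They lay on opposite sides of the control range, each without overlap, yet neither passed in the edgeR fit with filterByExpr (log2 fold changes 0.18 and -0.34, adjusted p = 0.224 and 0.0756). With offsets COL4A6 was called lower (-0.49, adjusted p = 0.0205). COL4A3 and COL4A4, the kidney glomerulus chains, had 2 to 32 counts in any library. The class summed to 28.2 ± 0.282 FPKM and then 30.8 ± 0.332 (SD, n = 3), 8.86% more.

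COL18A1 (ENSG00000182871, chromosome 21, 45405165 to 45513720), the multiplexin of basement membranes whose C-terminal end is released as endostatin, showed the largest log2 fold change of the 14 tested genes. It read 19.8, 21.5 and 20.7 FPKM in the shControl libraries and 31.6, 31.9 and 32.1 in the shSLC1A5 libraries. All shSLC1A5 values lay far above all shControl values, with a log2 fold change of 0.61 (SE 0.027, edgeR adjusted p = 6.56e-08). With GC content and length offsets it was 0.25 (95% confidence interval 0.19 to 0.30, adjusted p = 4.55e-05), at the highest GC content of the 14, 67.2%. Its gene model overlaps that of SLC19A1, the reduced folate carrier on the other strand, by 20149 bases, and SLC19A1 went from 4.74 to 6.37 FPKM. No source used here says whether reads were counted by strand, so the 2 cannot be told apart where they overlap. COL15A1, the other multiplexin, had 4 to 15 counts in shControl and 0 to 5 in shSLC1A5, with overlap, and was not tested.

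COL7A1 (chromosome 3, 48564073 to 48595267), which forms the anchoring fibrils under epithelia, read 42.6, 43.2 and 42.3 FPKM in shControl and 53.7, 52.7 and 52.4 in shSLC1A5. The groups did not overlap, and the log2 fold change of 0.30 (SE 0.019, edgeR adjusted p = 1.04e-06) became -0.01 with GC content and length offsets (95% confidence interval -0.05 to 0.03, adjusted p = 0.778). COL8A1 (chromosome 3, 99638475 to 99799217), the network-forming collagen of vessel walls and the corneal endothelium, read 9.22, 9.05 and 9.36 FPKM and then 12.1, 12.1 and 11.7, a log2 fold change of 0.37 (SE 0.031, edgeR adjusted p = 6.99e-06) that was 0.39 with offsets (adjusted p = 5.70e-06). Its partner chain COL8A2 overlapped between groups at 0.165 to 0.229 and 0.207 to 0.223 FPKM, and COL10A1, the collagen of growth plate cartilage, had 4 to 18 counts.

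The transmembrane collagens were lower in summed FPKM, at 1.05 ± 0.0757 in shControl against 0.780 ± 0.108 (SD, n = 3), and none of its members averaged 1 FPKM. COL13A1, found at cell adhesions and the neuromuscular junction, lay at 0.504 to 0.631 FPKM in shControl and 0.304 to 0.404 in shSLC1A5. In the edgeR fit with filterByExpr it was the only one of 30 collagens tested that fell, by 0.74 on the log2 scale (adjusted p = 0.00630), and by 0.96 with offsets (adjusted p = 0.00203). COL17A1, the hemidesmosome collagen, overlapped at 0.472 to 0.517 and 0.391 to 0.482 FPKM. COL23A1 and COL25A1 had 0 to 5 counts, and COL26A1, outside these classes, had 8 counts in 1 shControl library. In the filterByExpr fit without offsets 13 of 30 collagens rose, the 11 above with COL1A1 and COL14A1. Of all 19527 genes there, 12.2% rose and 11.9% fell. With offsets 5 of the 30 were higher and 6 lower, beside 4.33% and 13.9% of all genes.

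Because many collagens are built from chains of several genes, the ratios of partner chains were followed in each library. The COL1A2 to COL1A1 ratio of FPKM was 165, 136 and 167 in shControl and 135, 123 and 114 in shSLC1A5. The COL5A1 to COL5A2 ratio was 0.868, 0.891 and 0.849 and then 1.09, 1.11 and 1.09, so COL5A1 passed from below to above its partner. The COL4A5 to COL4A6 ratio went from 1.07 ± 0.102 to 1.54 ± 0.0334 (SD, n = 3). In type VI, the COL6A3 to COL6A1 ratio went from 2.54 ± 0.0263 to 2.28 ± 0.0507 and that of COL6A1 to COL6A2 from 1.30 ± 0.0256 to 1.24 ± 0.0262. The COL4A2 to COL4A1 ratio went from 2.05 ± 0.0431 to 2.21 ± 0.0926. None of the 6 ratios overlapped between groups. The FPKM of 49.6% of all tested genes did not overlap either, and no such share was worked out for ratios of other genes. For each ratio the exact two-sided permutation test gave p = 0.1, the smallest that 3 libraries against 3 allow, also after adjustment over the 6. Partner transcripts differ in GC content, and 5 of the 6 differences between the partners' fitted log2 fold changes shrank or turned with GC content and length offsets. COL6A3 minus COL6A1 turned from -0.16 to 0.07, COL4A2 minus COL4A1 from 0.11 to -0.03, COL6A1 minus COL6A2 went from -0.08 to -0.02 and COL5A1 minus COL5A2 from 0.33 to 0.12. Of the pairs with low members, fitted with filterByExpr, COL1A2 minus COL1A1 went from -0.32 to -0.02 and COL4A5 minus COL4A6 from 0.53 to 0.59.

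**Figure D4:**
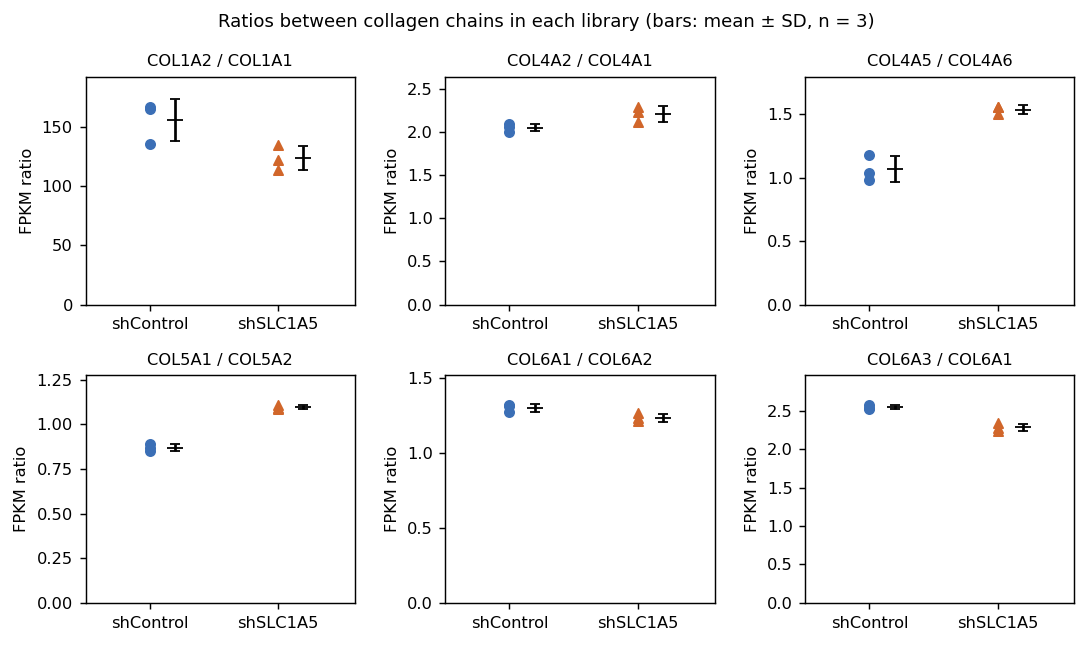
FPKM ratio of 6 pairs of collagen chains in each library (circles shControl, triangles shSLC1A5), with mean ± SD of 3 libraries beside them, each axis starting at 0. The ratio of COL1A2 to COL1A1 exceeds 100 in every library, and the COL5A1 to COL5A2 ratio crosses 1 between the groups.

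The machinery around collagen moved in parts. Of 78 genes in 6 lists, 62 were tested, 26 rose (41.9%), 13 fell (21.0%) and 23 did not pass, beside 20.2% and 19.0% of all genes, so the share that fell is near that of all genes. With GC content and length offsets 16 were higher and 17 lower (25.8% and 27.4%, beside 11.1% and 14.8%). With filterByExpr and offsets 8 were higher and 20 lower, beside 4.33% and 13.9% of all genes in that fit. The median log2 fold change there was -0.06 over genes of 1 FPKM or more, so its counts are read against that shift. Among the enzymes that hydroxylate and glycosylate the chains, 10 of 13 rose and 2 fell (median log2 fold change 0.17), and 6 were higher and 2 lower with offsets. P4HA1, a catalytic subunit of prolyl 4-hydroxylase that low oxygen is known to induce, rose by 0.44 on the log2 scale, from a mean of 34.5 to 47.2 FPKM (edgeR adjusted p = 8.36e-07). P3H4, a partner of lysyl hydroxylase, rose by 0.31 (adjusted p = 0.00100) and P4HB, the other prolyl 4-hydroxylase subunit, by 0.14 (adjusted p = 3.89e-05). With offsets P4HA1 was at 0.52, P3H4 at 0.09 and not called, and P4HB at 0.00 and not called.

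Of the chaperones and export factors of procollagen 5 of 12 fell, 1 rose and 6 did not pass (median -0.12), where 19.0% of all genes fell. With offsets edgeR called 6 lower and 0 higher, where 14.8% of all genes were lower, and 1 higher at an unadjusted p under 0.05. MIA3, which loads procollagen into transport carriers, fell by 0.29 (edgeR adjusted p = 9.79e-05) and FKBP14, a prolyl isomerase of the endoplasmic reticulum, by 0.24 (adjusted p = 7.53e-04). FKBP10, the 1 member that rose, stood at 0.23 and, with offsets, at 0.07 and not called. SERPINH1, the collagen chaperone HSP47, was at 34.6 and 35.7 FPKM (log2 fold change 0.03, adjusted p = 0.312) and was called lower with offsets (-0.08, adjusted p = 0.0266).

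Over all genes 20.2% rose and 19.0% fell, and 11.1% were higher and 14.8% lower with offsets. Of the genes that cut propeptides and cross-link fibrils, 6 of 7 rose and 0 fell (median 0.39), and edgeR called 4 higher and 0 lower with offsets. At an unadjusted p under 0.05 the numbers lower were 0 in both fits. DESeq2 called 6 higher and 0 lower, where it called 2585 of all 11841 genes higher. PCOLCE, which speeds removal of the C-terminal propeptide, rose by 0.61 (edgeR adjusted p = 4.61e-07) and LOXL1, a lysyl oxidase, by 0.61 (adjusted p = 3.57e-05), and these were 0.39 and 0.24 with offsets. LOX itself was at 24.4 and 23.7 FPKM (log2 fold change -0.05, adjusted p = 0.249). Collagen receptors split, with 3 of 7 higher and 3 lower (median -0.06), the same counts as with offsets. ITGA11, the integrin chain that binds fibrillar collagen, rose by 0.54 (edgeR adjusted p = 7.45e-05) and DDR1, a receptor kinase for collagen, by 0.46 (adjusted p = 2.03e-04). ITGB1, the common beta chain, fell by 0.20 (adjusted p = 1.86e-05) and DDR2, listed beside DDR1, by 0.33 (adjusted p = 6.86e-05). With offsets ITGA11 was at 0.53, DDR1 at 0.21, ITGB1 at -0.12 and DDR2 at -0.28. DDR1 was not called by edgeR with filterByExpr and offsets (adjusted p = 0.120).

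Beside 20.2% of all genes higher and 19.0% lower, 4 of 8 collagen-degrading genes rose and 1 fell (median 0.12). With offsets 3 of these 8 were higher and 2 lower, beside 11.1% and 14.8% of all genes. The 2 with the largest log2 fold changes were interstitial collagenases, MMP1 from a mean of 45.0 to 68.5 FPKM (log2 fold change 0.59, edgeR adjusted p = 1.20e-07) and MMP13 from 3.38 to 5.13 (0.59, adjusted p = 5.01e-04), and they stood at 0.66 and 0.68 with offsets. MMP8, the neutrophil collagenase, was not tested and had 146 counts in shSLC1A5 replicate 1 and 0 to 3 in the other libraries. Of 15 known regulators of collagen genes, 2 rose and 2 fell (median -0.01), 13.3% each way and no more than over all genes, and with offsets edgeR called 0 higher, also at an unadjusted p under 0.05, and 4 lower. SMAD7, the inhibitor of TGF-beta signalling, fell by 0.42 (edgeR adjusted p = 7.53e-05), and CEBPB rose by 0.35 (adjusted p = 9.67e-05) but was at 0.02 with offsets.

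**Figure D5:**
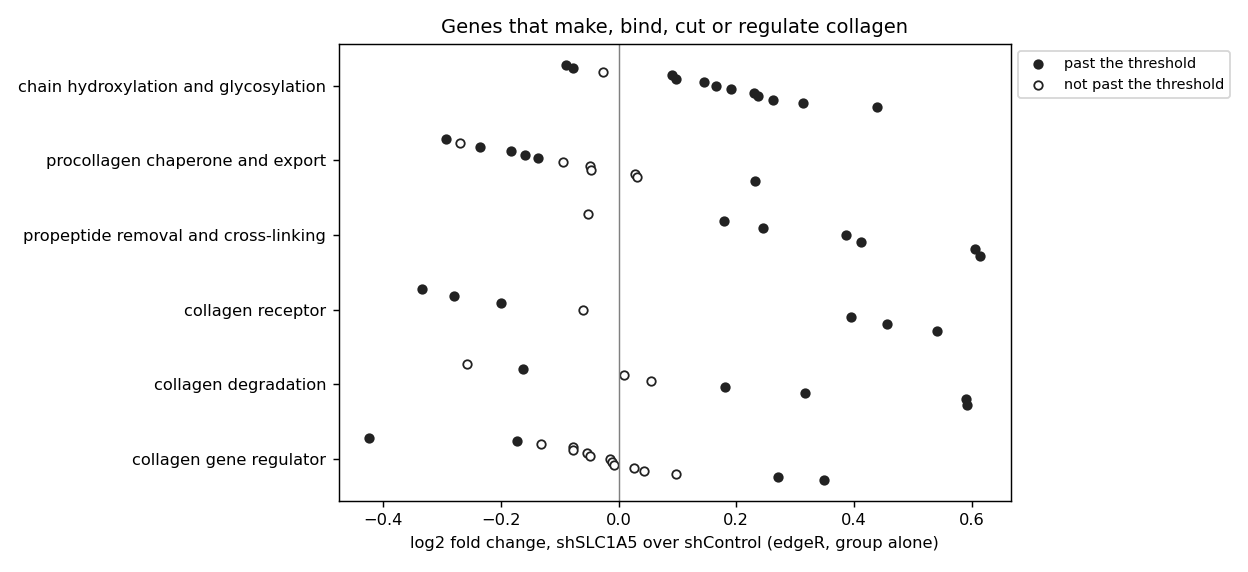
Log2 fold change of the 62 tested genes of 6 lists, shSLC1A5 over shControl, from the edgeR fit with group alone, with filled circles for an adjusted p under 0.05. Most hydroxylation and cross-linking genes lie right of 0, 9 of 12 chaperone and export genes left of it, and regulators gather near 0 with SMAD7 farthest to the left.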

How the data were processed

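Poly(A) RNA of 6 T98G libraries was read as paired ends on an Illumina instrument, per the labels' protocols. The submitters' processing notes name fastp, HISAT2 and StringTie. No source used here gives the build or the strand setting. The authors deposited 1 table with counts per gene and, per the file headers, FPKM for the same libraries. How the counts were made is not stated, and they were taken as raw. Of 35750 IDs, 34674 are in GENCODE 29, and 99.9% of these lie at the same place on GRCh38.

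The counts of genes averaging 1 FPKM or more were tested with edgeR 4.0.16 in R 4.3.3 (TMM, group alone, quasi-likelihood F test, Benjamini-Hochberg over 11841 genes, threshold 0.05). Within-group pairs of libraries differed by 9.82 to 16.7 times the variance of counting noise, so no library was counted as a copy. For the offsets, GC content and length came from each gene's longest transcript in GENCODE 29 (found for 99.7% of tested genes), with a loess span of 0.3. Alternatives were DESeq2 1.42.0, limma 3.58.1 on log2(FPKM + 1) and log2(FPKM + 0.1), upper-quartile scaling, other filters, offsets, a replicate block and fits without each library. GC offsets alone and filterByExpr with offsets were chosen after seeing the data. On simulated counts with set changes, edgeR recovered 25.8% of those of 0.25 on the log2 scale, 70.1% of 0.5 and 91.0% of 1. The simulation changed far fewer genes than the 4641 called here, and drew them from all levels. These shares therefore need not hold for the tested collagens. A gene not called may still differ. Every collagen gene is named, with values by level, and in each pathway list the 2 called genes of largest log2 fold change and P4HB, SERPINH1, LOX and ITGB1. FKBP10, MMP8, DDR2, the endothelial markers beside CDH5 and the fibroblast and pericyte markers were named after their values were seen. The members and lists were chosen with earlier results of these data known.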

Additional observations from a re-analysis of the deposited data

How the results depend on the processing

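Of the 14 tested collagens, 11 were called under upper-quartile scaling, DESeq2, both limma fits and the replicate block, and 11 (range 11 to 11) without each library in turn, all of them higher. Of all 11841 genes these settings called 4582, 5002, 3934, 3781 and 4470, and 3863 to 4081 without each library. It was 12 of 14 with a minimum of 5 FPKM, 13 of 39 without a filter and 14 of 30 with filterByExpr, the last 2 including COL13A1 as lower. Over all genes the calls there were 3378 of 6749, 3466 of 34207 and 4706 of 19527. With GC content and length offsets, alone or with the replicate block, 6 were higher and 2 lower, with GC offsets alone 7 and 2, and with filterByExpr and offsets 5 and 6 of 30. In the same order, these fits called 3071, 2928 and 2973 of 11841 genes and 3553 of 19527. Of those calls 1319, 1237, 1352 and 845 were higher. Microfibrillar calls numbered 1 in place of 3 and FACIT calls 1 in place of 2 under each of these 4 fits: COL6A3 and COL12A1 higher in the first 3, but COL6A3 lower and COL14A1 higher with filterByExpr and offsets. Fibrillar calls numbered 4 with GC offsets alone and basement membrane calls 3 with filterByExpr and offsets.

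The log2 fold changes that turned sign did so under these 4 fits, given in the order offsets, block with offsets, GC alone, filterByExpr with offsets where all 4 turned: COL4A2 -0.0902, -0.0901, -0.0860 and -0.157, COL4A1 -0.0626, -0.0629, -0.0404 and -0.130, COL27A1 -0.171, -0.171, -0.167 and -0.229, and COL7A1 -0.0089, -0.0091, -0.0100 and -0.0816. COL6A1 turned in 3 of them (-0.0073, -0.0072 and -0.0558, against 0.0061 with GC alone). With filterByExpr and offsets alone, COL6A2 was at -0.0463, COL16A1 at -0.0457, COL6A3 at -0.0758 and COL5A2 at -0.0005, where the median of all genes was -0.0514, so COL6A2, COL16A1 and COL5A2 lay above that median. Over genes of 1 FPKM or more the median of that fit was -0.0631, and COL6A1 lay above this one as well. The cause was not tested. Counts over the pathway lists were 39, 26 higher and 13 lower, with 28 to 41 under the alternatives. With filterByExpr and offsets 8 were higher and 20 lower, beside 4.33% and 13.9% of all genes in that fit.

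Replicate numbers are shared between the groups, but same-numbered libraries did not deviate together (correlations -0.15, 0.04 and -0.03). Differently numbered libraries correlated at -0.12 to 0.12. Deviations from a mean of 3 libraries depend on each other, so these values cannot show whether a preparation was shared. The replicate block took the calls over all genes from 4641 to 4470 and left the collagens at 11, and not every library correlated best with its own number. Depth limits the scarce collagens: for COL8A2, with 55 to 79 counts per library, the edgeR filterByExpr interval ran from -0.55 to 0.59.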
